A study of Zea mays with 24 samples.

Results

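SnRK2.4 (Zm00001d042695) is a maize gene that the expression table names SnRK2 serine threonine protein kinase 4 and describes as Serine/threonine-protein kinase SRK2A. It is 1 of the 46430 genes in the table, and was taken by its identifier from all 24 leaf libraries. It was chosen with earlier results of these data in view, from its values under moderate drought against control in both lines and in Y7-1 against Y478 under control, all without exogenous abscisic acid (ABA). Those values, and any comparison that uses those libraries, are therefore described for SnRK2.4 without a test. The ABA-sprayed plants were other plants, and the comparisons among them were tested.

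SnRK2 kinases are plant-specific serine/threonine kinases that work in the responses to drought, salt and ABA. In the core ABA pathway, worked out mainly in Arabidopsis, ABA-bound receptors of the PYR/PYL family inhibit type 2C protein phosphatases (PP2C), which frees SnRK2 kinases to phosphorylate bZIP transcription factors of the ABI5 and ABF type, anion channels and respiratory burst oxidases. The Arabidopsis kinases differ in this respect. SRK2E, also called OST1, is strongly activated by ABA and closes stomata, whereas SRK2A belongs to a group activated by osmotic stress with little or no activation by ABA. Transcript levels do not measure kinase activity.

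The wild type was the inbred line Y478 (Ye478), and Y7-1 was a T4-generation line made from it that carries 1 inserted construct in which a cauliflower mosaic virus promoter drives ZmPMP3g, a small membrane protein gene, so that it stands for 1 transformation line. Pot-grown plants of both lines at the fifth leaf stage received 4 treatments, with 3 plants and 3 libraries in each of the 8 groups. Control plants were kept at a pot mix moisture of 70%, and water was withheld from moderate drought plants until the moisture had dropped to 50%, the upper limit of that class. The control-exogenous ABA and moderate drought-exogenous ABA plants were watered in the same ways and their leaves were sprayed with 15 mg/L ABA, while the methods give the control seedlings a spray of the same volume of tap water. The second fully-expanded leaf was taken 9 days after the pot mix had reached 50%. Values are FPKM, that is, fragments scaled by gene length and by a size of the library. The size that the FPKM steps imply was not the total of recovered reads. It was 13660486 against 18090228 reads in Y478 control-exogenous ABA replicate 3, and 19109782 against 16608080 in Y7-1 moderate drought replicate 1. How the deposited values were scaled is not given in the sources used here.

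The number of reads per library recovered from the FPKM steps was 15762667 to 18428177, of which SnRK2.4 took 425 to 4393. Counting error on SnRK2.4 was thus between 1.51% and 4.85% of its value. Leaf enzymes of C4 photosynthesis marked all libraries, with the lowest value of any of 6 such genes at 539 FPKM (phosphoenolpyruvate carboxylase1), although the labels' extraction text names another tissue. The deposited ZmPMP3g homolog, Zm00001d024778, was not higher in Y7-1. Its FPKM was 195 to 433 in Y478 and 229 to 342 in Y7-1 under control, and the log2 fold change between lines was 0.01 (limma, adjusted p = 0.996). Whether reads of the inserted copy count toward this gene is not known.

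The library labelled as Y7-1 moderate drought replicate 3 went against its label. Of 125 genes at 1 FPKM or more in nearly all Y7-1 and almost no Y478 libraries of the other treatments, it held 0 at that level, where Y7-1 moderate drought replicates 1 and 2 held 107 and 109 and each Y478 moderate drought library held 1. Of 74 genes with the opposite pattern, it held 68, against 0 and 4 in the other Y7-1 moderate drought libraries. Values of SnRK2.4 and counts of called genes in the comparisons that use it are given below with and without it, and its bearing on the correlations is given beside them. The comparisons among ABA-sprayed plants do not use it except in the shared estimate of the spread.

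SnRK2.4 lies on chromosome 3 from 177276266 to 177281835 on the minus strand (coordinates as deposited, in an annotation whose contig names are those of B73 RefGen_v4), with a table length of 5280 bases within a span of 5570. The nearest expressed neighbour, Zm00001d042694, described as the putative ion channel protein POLLUX, lies on the opposite strand and ends 634 bases from the end of SnRK2.4. It had between 3.56 and 6.97 FPKM over all libraries and passed the test in none of the 14 comparisons made here, while its log2 fold change under drought with ABA was -0.37 in Y478 and -0.24 in Y7-1. The next expressed gene, PsbS1 (Zm00001d042697), which encodes a photosystem II subunit used in the dissipation of excess light, lies 57109 bases away and passed in none either. Zm00001d042693, beyond Zm00001d042694, and Zm00001d042696, between SnRK2.4 and PsbS1, were listed at 0 in all libraries. Whether reads were counted by strand is not given in the sources used here.

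SnRK2.4 was low in leaves of well-watered plants and high in leaves of droughted plants of both lines. In Y478 under control the 3 plants had 5.83, 6.42 and 7.19 FPKM (6.48 ± 0.682, SD, n = 3). Under moderate drought they had 34.1, 41.1 and 33.8 FPKM (36.3 ± 4.14, SD, n = 3). All droughted Y478 plants stood above all control plants, with a log2 difference of 2.4 that belongs to the values the gene was chosen on.

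In Y7-1 under control the plants had 20.7, 12.1 and 9.91 FPKM (14.2 ± 5.69, SD, n = 3), each above every Y478 control plant. Under moderate drought they had 32.7 and 28.6 FPKM, and the library labelled replicate 3 had 37.1 FPKM (32.8 ± 4.24, SD, n = 3, and 30.7 ± 2.93 over the 2 others). The droughted plants again stood above the control plants. The log2 difference was 1.24 with the library labelled replicate 3 and 1.15 without it, and the log2 difference of Y7-1 from Y478 was 1.01 under control. Under moderate drought it was -0.15 with that library and -0.24 without, with overlapping groups.

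**Figure D1:**
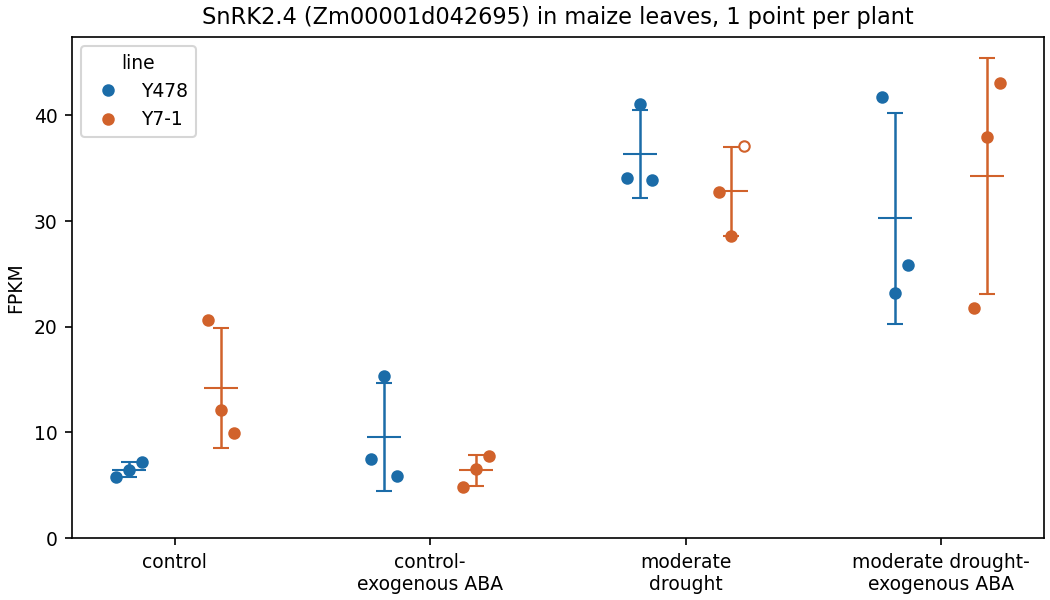
SnRK2.4 level (FPKM, vertical axis from 0) in 24 leaf libraries, by treatment and line, where each point is 1 plant, the short line the group mean and the bars 1 SD, and the open point the library labelled as Y7-1 moderate drought replicate 3. The 12 well-watered libraries lie between 4.86 and 20.7 FPKM and the 12 droughted libraries between 21.8 and 43.1 FPKM.

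Among ABA-sprayed plants, which the choice of the gene did not use, SnRK2.4 rose under moderate drought in both lines. In Y478 the control-exogenous ABA plants had 7.44, 15.4 and 5.89 FPKM (9.56 ± 5.07, SD, n = 3), and the moderate drought-exogenous ABA plants had 41.7, 23.2 and 25.9 FPKM (30.3 ± 10.0, SD, n = 3). The groups did not overlap, although 1 control plant stood apart from the others of its group. The log2 fold change was 1.68 (SE 0.33, 95% interval 1.00 to 2.36, limma adjusted p = 0.00398).

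In Y7-1 the control-exogenous ABA plants had 4.86, 6.56 and 7.80 FPKM (6.41 ± 1.48, SD, n = 3), and the moderate drought-exogenous ABA plants had 21.8, 37.9 and 43.1 FPKM (34.3 ± 11.1, SD, n = 3). Every droughted plant stood above every well-watered plant. The log2 fold change was 2.3 (SE 0.33, 95% interval 1.62 to 2.98, limma adjusted p = 3.65e-04). By p it ranked 69th of 23978 tested genes in Y7-1 and 343rd in Y478. Of all tested genes, 9.66% passed in Y478 (5.84% higher) and 11.8% in Y7-1 (6.56% higher).

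These tests share one estimate of the spread over all 24 libraries, including those used to choose the gene. With the compared groups alone in the fit, both log2 fold changes were the same and the adjusted p was 0.0359 in Y478 and 0.0328 in Y7-1.

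The drought response of SnRK2.4 with ABA was not shown to differ between the lines. The difference of the log2 fold changes, Y7-1 minus Y478, was 0.62 (SE 0.46, 95% interval -0.34 to 1.58, limma adjusted p = 0.648), and the interval holds both an equal response and a larger one in Y7-1. Without ABA the same difference was -1.16 with the library labelled as Y7-1 moderate drought replicate 3 and -1.25 without it, given as description only. The 2 differences had opposite signs. Their own difference was not tested, because its libraries without ABA are those that chose the gene.

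Nor did the lines differ detectably in SnRK2.4 among ABA-sprayed plants. Under control-exogenous ABA the log2 difference of Y7-1 from Y478 was -0.45 (95% interval -1.13 to 0.23, limma adjusted p = 0.337), with overlapping groups. Under moderate drought-exogenous ABA it was 0.17 (95% interval -0.51 to 0.85, limma adjusted p = 0.736), again with overlapping groups. Called shares of all tested genes in these comparisons were 22% and 28.1%.

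Plants with and without ABA overlapped in SnRK2.4 in 3 of 4 pairs of groups. The log2 difference of plants with ABA from those without it was 0.42 under control and -0.30 under moderate drought in Y478. It was 0.01 under moderate drought in Y7-1, and 0.10 without the library labelled replicate 3, and these groups overlapped. Y7-1 under control was the exception, with -1.05, where all 3 plants with ABA (4.86 to 7.80 FPKM) lay under all 3 plants without it (9.91 to 20.7 FPKM). These 4 differences use the libraries that chose the gene and carry no test.

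Ordered by mean, the groups ran from Y7-1 control-exogenous ABA through Y478 control, Y478 control-exogenous ABA and Y7-1 control to Y478 moderate drought-exogenous ABA, Y7-1 moderate drought, Y7-1 moderate drought-exogenous ABA and Y478 moderate drought. Only between Y7-1 control and Y478 moderate drought-exogenous ABA did neighbours in this order not overlap, with a gap of 16.0 FPKM between means. All other neighbours differed by less than the larger of their SDs, and the order was the same without the library labelled as Y7-1 moderate drought replicate 3. In bulk leaf tissue, fewer cells of a type and less RNA per cell cannot be told apart.

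Some marker lists of leaf cell types moved with drought among ABA-sprayed plants, and others did not. The 6 bundle sheath enzymes, among them the small subunits of Rubisco and NADP malic enzyme3, summed to 9694 to 18851 FPKM in Y7-1 under control-exogenous ABA and to 4263 to 5153 FPKM under moderate drought-exogenous ABA, where 3 of 5 tested fell. In Y478 the same sums were 9381 to 18192 and 9456 to 12056 FPKM. The 24 genes of the mesophyll C4 list, 23 of them above 0, summed to 11494 to 15597 and 4137 to 8695 FPKM in Y478 and to 11424 to 13372 and 7355 to 9980 FPKM in Y7-1. Of 19 tested, 1 rose and 4 fell in Y478 and 3 rose and 3 fell in Y7-1. That list was matched by name or description and takes any carbonic anhydrase, so its members are not all known mesophyll C4 enzymes. Of 33 genes named or described for senescence, 22 were above 0 and 19 were tested, of which 4 rose and 2 fell in Y478 and 2 rose and 3 fell in Y7-1, with medians of 0.50 and -0.10 on the log2 scale. They summed to 280 to 607 and 491 to 788 FPKM in Y478, and to 325 to 932 and 359 to 409 FPKM in Y7-1. Of 6 tested phloem sugar transporters, 0 passed in either line. Of 25 tested epidermis and wax genes, 0 passed in Y478, and 2 rose and 1 fell in Y7-1. Of 64 tested organelle-encoded genes, 1 fell in Y478 and 1 rose in Y7-1. Over all tested genes, 5.84% rose and 3.82% fell in Y478, and 6.56% rose and 5.19% fell in Y7-1. None of the 6 defining C4 genes was at 0 in any library, and the part of these lists in the SnRK2.4 values was not tested.

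By name or description, SnRK2.4 is 1 of 14 SnRK2 genes, all read in at least 1 library, of which 12 passed the filter on low values. SnRK2.7 (Zm00001d003659) and Zm00001d003758, both described as SRK2A, stayed under it, with no library above 0.607 FPKM. FPKM levels of different genes depend on the table lengths, which run here from 1188 to 6767 bases. SnRK2.1 (Zm00001d047220), described as SRK2C, was the highest member in every group, from a mean of 48.2 FPKM in droughted, ABA-sprayed Y7-1 plants to 81.3 FPKM in Y478 under control-exogenous ABA.

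The share of SnRK2.4 in the summed FPKM of the family was 4.18% ± 0.37 (SD, n = 3) in Y478 under control and 5.10% ± 2.67 under control-exogenous ABA. Under moderate drought it was 17.7% ± 2.72, and 16.4% ± 4.28 with ABA. In Y7-1 the shares in the same order of treatments were 9.20% ± 3.49, 3.95% ± 1.06, 18.7% ± 2.1 (with the library labelled replicate 3, whose own share was 18.9% beside 20.7% and 16.5%) and 20.2% ± 5.63. It ranked 6th or 7th of 14 in Y478 control plants and 2nd in all droughted plants without ABA. The summed FPKM of the other 13 members was 149 ± 6.51 in Y478 under control and 170 ± 16.1 under moderate drought, and 158 ± 12.9 and 134 ± 6.90 in Y7-1 without and with drought among ABA-sprayed plants.

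**Figure D2:**
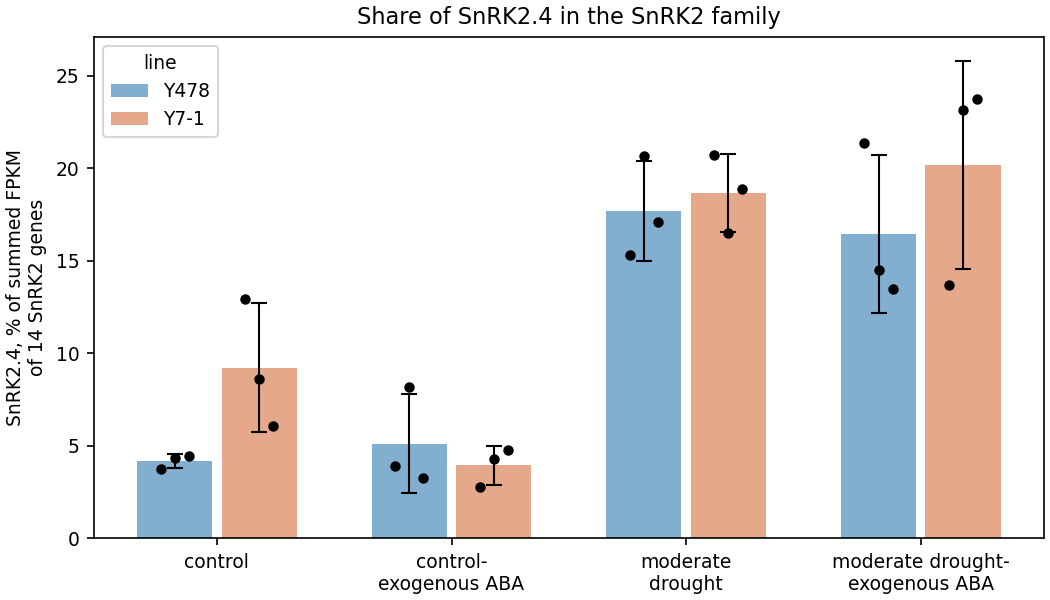
Share of SnRK2.4 in the summed FPKM of 14 SnRK2 genes (percent, vertical axis from 0) by treatment and line, with bars at the mean of 3 libraries, error bars of 1 SD and 1 point per library. Group means lie between 3.95% and 9.20% in well-watered plants and between 16.4% and 20.2% in droughted plants.

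Within the SRK2A-described group, the closest relatives by description, the members did not move together. SnRK2.5 (Zm00001d026690) fell under moderate drought among ABA-sprayed plants, while SnRK2.4 rose. In Y478 its 3 plants had 51.5, 34.1 and 48.9 FPKM under control-exogenous ABA and 23.5, 23.4 and 23.3 FPKM with drought added, and the log2 fold change was -0.90 (limma adjusted p = 0.0139). The droughted plants lay close together and under all well-watered plants. The call was lost without Y478 control-exogenous ABA replicate 1 or without Y478 moderate drought-exogenous ABA replicate 3, with an adjusted p of up to 0.0789.

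In Y7-1 SnRK2.5 had 32.4, 35.6 and 51.3 FPKM under control-exogenous ABA and 16.3, 15.1 and 16.6 FPKM under moderate drought-exogenous ABA. The groups did not overlap, and the log2 fold change was -1.26 (limma adjusted p = 0.00151), a call that held in 16 of 16 alternatives. Without ABA its log2 fold change under drought in Y478 was -0.07 (adjusted p = 0.939). SnRK2.11 (Zm00001d038326), the other tested SRK2A-described gene, had log2 fold changes of -0.11 in Y478 and -0.14 in Y7-1 among ABA-sprayed plants, with 95% intervals of -0.48 to 0.26 and -0.51 to 0.22.

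Among the 3 genes described as SRK2C, SnRK2.3 (Zm00001d029975) rose with SnRK2.4 under drought in ABA-sprayed plants. It had 2.58, 6.0 and 4.09 FPKM in Y478 under control-exogenous ABA and 9.57, 6.89 and 8.84 FPKM with drought added, and the log2 fold change was 0.97 (limma adjusted p = 0.0333). The groups did not overlap, but the call was lost without Y478 control-exogenous ABA replicate 1 or 3, without Y478 moderate drought-exogenous ABA replicate 1 or 3, or with the compared groups alone in the fit, with an adjusted p of up to 0.19. In Y7-1 it had 3.34, 1.67 and 3.67 FPKM without and 10.8, 11.3 and 15.9 FPKM with drought, a log2 fold change of 2.00 (limma adjusted p = 3.41e-04). That call held in 16 of 16 alternatives. The line difference in this response was 1.02 on the log2 scale (95% interval 0.20 to 1.85, adjusted p = 0.36) and did not pass, in a comparison that called 0.0292% of all tested genes. Without ABA, SnRK2.3 was not called under drought in either line. Its means under control and moderate drought were 6.34 and 10.4 FPKM in Y478, with no overlap, and 7.17 and 7.84 FPKM in Y7-1. Without the library labelled as Y7-1 moderate drought replicate 3, the log2 fold change in Y7-1 was 0.11 (limma adjusted p = 0.941).

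**Figure D3:**
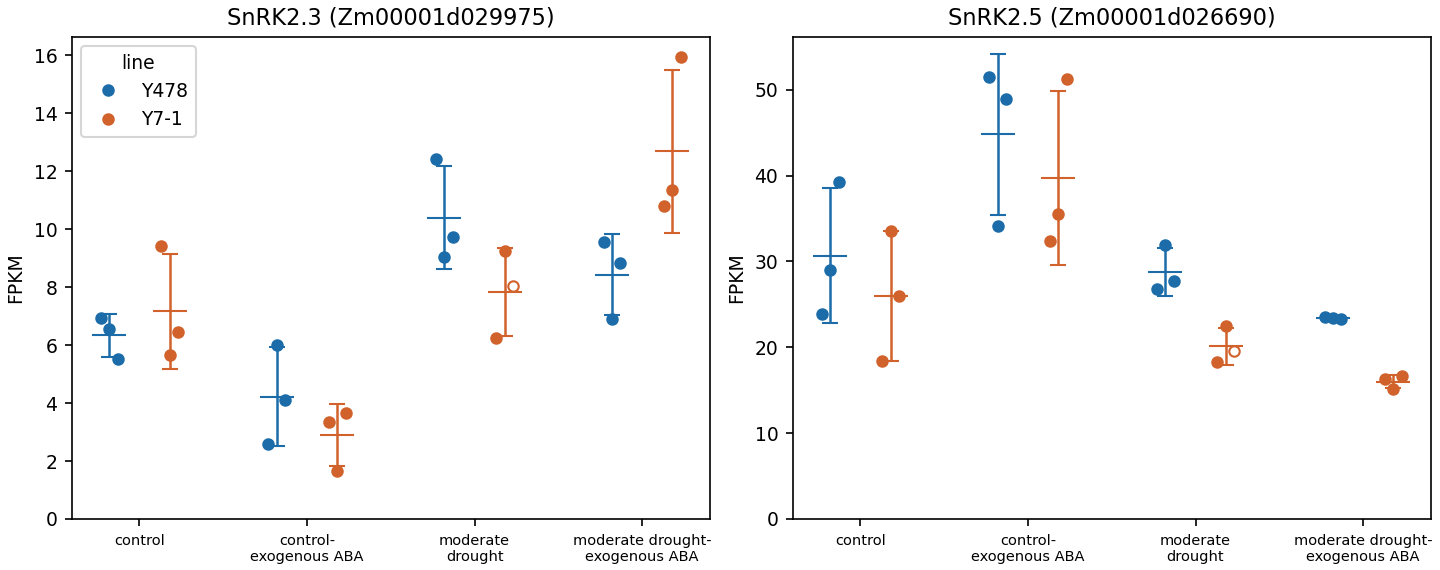
Levels of SnRK2.3 (left) and SnRK2.5 (right) in FPKM (vertical axes from 0) by treatment and line, with 1 point per plant, a short line at the mean and bars of 1 SD, and the open point marking the library labelled as Y7-1 moderate drought replicate 3. Among ABA-sprayed plants of both lines SnRK2.3 was higher and SnRK2.5 lower under drought, with no overlap between the groups.

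The other SRK2C-described genes, SnRK2.1 and SnRK2.2 (Zm00001d022179), did not pass under drought with ABA in either line. SnRK2.2 had 11.5, 9.17 and 8.71 FPKM in Y478 under control and 22.8, 14 and 13.9 FPKM under moderate drought, which gave a log2 fold change of 0.73 (limma adjusted p = 0.0416). It was the only one of the 11 tested members other than SnRK2.4 called there, beside 5.98% of all tested genes, and the call was lost without any 1 of the Y478 control libraries or without Y478 moderate drought replicate 1 or 2, with the compared groups alone or with no filter (adjusted p of up to 0.249). Between lines, SnRK2.2 differed in both treatments of ABA-sprayed plants. Among ABA-sprayed plants the log2 difference of Y7-1 from Y478 was -0.99 under control (6.30 against 12.9 FPKM, adjusted p = 0.00243) and -0.99 under moderate drought (8.52 against 17.5 FPKM, adjusted p = 0.00219), and both calls held in 16 of 16 alternatives.

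Under moderate drought without ABA the SnRK2.2 difference between lines was -0.87 (adjusted p = 0.0471) and, without the library labelled as Y7-1 moderate drought replicate 3, -0.95 (adjusted p = 0.0105). That comparison called 1.16% of all tested genes with the library and 12.8% without it. With all libraries, its call was lost without Y478 moderate drought replicate 1 or 2, without Y7-1 moderate drought replicate 1 or 2, with the compared groups alone, with no filter and by limma-voom, with an adjusted p of up to 0.408.

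The 3 genes described as SRK2E, named after the Arabidopsis kinase of stomatal closure, did not pass under drought with ABA in either line, and their log2 fold changes there lay between -0.27 and 0.15. SnRK2.10 (Zm00001d013736) had wide intervals, -1.13 to 1.04 in Y478 and -1.32 to 0.85 in Y7-1. It was higher in Y7-1 than in Y478 among ABA-sprayed plants, at 12.1 against 3.05 FPKM under control (log2 1.77, adjusted p = 0.0201) and 9.58 against 2.90 FPKM under moderate drought (log2 1.58, adjusted p = 0.0302). The first call was lost without Y478 control-exogenous ABA replicate 1 or 3 or Y7-1 control-exogenous ABA replicate 1 (adjusted p of up to 0.0764), and the second without any 1 of its 6 libraries (up to 0.0929).

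Zm00001d013201, another SRK2E-described gene, was lower in droughted, ABA-sprayed plants of Y7-1 than of Y478 (1.86 against 3.36 FPKM, log2 -0.70, adjusted p = 0.0322), and the call was lost without Y478 moderate drought-exogenous ABA replicate 3 or Y7-1 moderate drought-exogenous ABA replicate 2 or 3 and by limma-voom on recovered reads (adjusted p of up to 0.155). Zm00001d033339, the third of them, passed in none of the 4 comparisons among ABA-sprayed plants.

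Of the members without such a description, Zm00001d012263, a putative SnRK/SAPK family kinase at low level, rose in Y7-1 from 0.622 to 2.13 FPKM (log2 1.16, adjusted p = 0.0188). The call was lost without Y7-1 control-exogenous ABA replicate 3 or Y7-1 moderate drought-exogenous ABA replicate 1 or 3, or with the compared groups alone (adjusted p of up to 0.138). In Y478 its log2 fold change was 0.67 (adjusted p = 0.171). SnRK2.6 (Zm00001d050723) and SnRK2.8 (Zm00001d034161) did not pass under drought with ABA, with log2 fold changes between 0.12 and 0.28. SnRK2.6 was higher in Y7-1 under control-exogenous ABA (17.0 against 8.41 FPKM, log2 0.86, adjusted p = 0.049), a call that 7 of 16 alternatives kept. It was lost without any 1 of the Y478 libraries or Y7-1 replicate 1 or 3, and with no filter, array weights, limma-voom or the compared groups alone (adjusted p of up to 0.388).

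In all, of the 11 tested members other than SnRK2.4, 1 rose and 1 fell in Y478 and 2 rose and 1 fell in Y7-1 under drought with ABA, with medians of 0.15 and -0.14 on the log2 scale beside medians over all tested genes of 0.00 and 0.01. The background was 5.84% of all tested genes higher and 3.82% lower in Y478, and 6.56% higher and 5.19% lower in Y7-1.

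**Figure D4:**
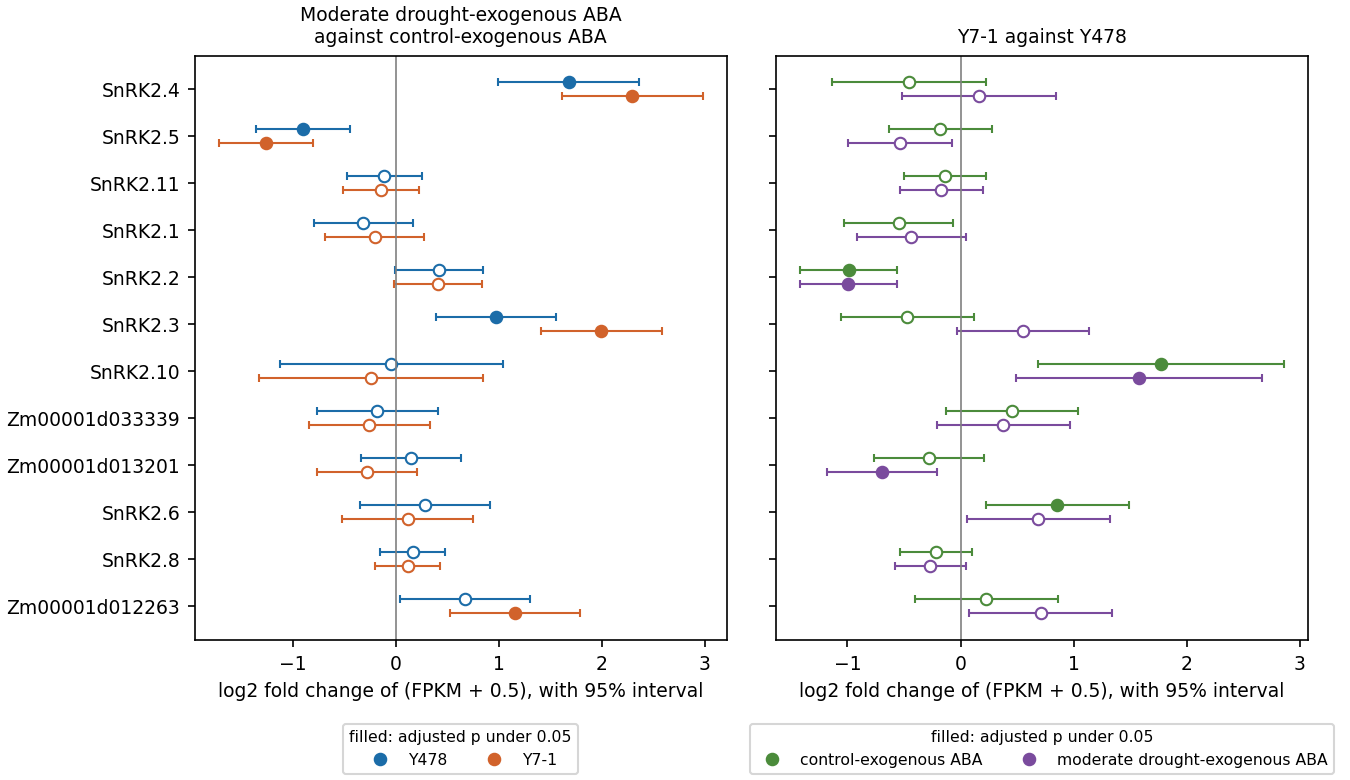
Log2 fold changes of (FPKM + 0.5) with 95% intervals for the 12 tested SnRK2 genes among ABA-sprayed plants, for moderate drought against control in each line (left) and for Y7-1 against Y478 in each treatment (right), where filled points have an adjusted p under 0.05. SnRK2.4 lies at 1.68 in Y478 and 2.3 in Y7-1 on the left and spans 0 on the right.

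Upstream of SnRK2 kinases in the core pathway, 4 of 9 tested ABA receptors rose in Y478 under drought with ABA, beside 5.84% of all tested genes, and 1 fell in Y7-1, beside 5.19%. A PYL9-described receptor, Zm00001d010445, rose in Y478 from 3.35 ± 0.503 to 25.3 ± 11.9 FPKM (log2 2.61, SE 0.54, adjusted p = 0.00573), with no overlap. In Y7-1 its log2 fold change was 0.54 (adjusted p = 0.573), where 1 of the 3 control-exogenous ABA plants had 61.4 FPKM and the others 5.95 and 9.87. The receptor list had a median log2 fold change of 0.23 in Y478 and -0.23 in Y7-1.

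Of the 87 tested PP2C phosphatases, 7 rose and 3 fell in Y478 and 11 rose and 3 fell in Y7-1, with medians of 0.10 and 0.01. Over all tested genes, 5.84% rose and 3.82% fell in Y478, and 6.56% rose and 5.19% fell in Y7-1, which is also the background of the lists that follow. Most genes of this list are not known regulators of ABA signaling. PP2C 37 (Zm00001d028574) of Y7-1 had 3.49, 0.802 and 0.700 FPKM under control-exogenous ABA and 33.4, 49.6 and 63.0 FPKM with drought added. All droughted plants stood above all others, and the log2 fold change of 4.69 (SE 0.57, adjusted p = 1.28e-04) held in 16 of 16 alternatives. The Arabidopsis phosphatase of that name is a negative regulator of SnRK2 kinases and is itself induced by ABA.

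Downstream, 2 of 9 tested ABI5-like bZIP genes rose in each line, and 1 fell in Y478, with medians of 0.08 and 0.44. Zm00001d031790, described as ABI5-like protein 5, rose in Y7-1 from 4.53 ± 3.59 to 11.2 ± 0.392 FPKM (log2 1.45, adjusted p = 0.00467), a call that ended with the compared groups alone in the fit (adjusted p = 0.141). The member that fell in Y478 was Zm00001d042779 (log2 -1.28, limma adjusted p = 0.0457), a call that 8 of 16 alternatives kept. It was also lower in Y7-1 than in Y478 under control-exogenous ABA (log2 -2.35, limma adjusted p = 5.50e-04, kept in 16 of 16). Under moderate drought-exogenous ABA the line difference was -1.26 (limma adjusted p = 0.0239, kept in 12 of 16). Of 53 tested protective proteins, such as dehydrins and late embryogenesis abundant proteins, 17 rose in each line, with medians of 0.80 and 0.76. Dehydrin DHN1 (Zm00001d037894) rose from 9.74 ± 7.91 to 418 ± 203 FPKM in Y478 (log2 5.67, adjusted p = 6.71e-04) and from 1.88 ± 1.42 to 662 ± 328 FPKM in Y7-1 (log2 8.29, adjusted p = 1.53e-05).

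Of 17 tested genes of ABA synthesis and turnover, 3 rose in Y478 and 2 in Y7-1, with medians of -0.31 and 0.36. Viviparous14 (Zm00001d033222), a 9-cis-epoxycarotenoid dioxygenase that acts early in ABA synthesis, was called higher, from 5.45 ± 5.59 to 38.7 ± 15.6 FPKM in Y478 (log2 3.05, adjusted p = 0.00181) and from 1.26 ± 0.705 to 18.4 ± 4.41 FPKM in Y7-1 (log2 3.49, adjusted p = 4.21e-04). Both calls held in 16 of 16 alternatives. Of 15 tested SnRK1 kinases and partners, which sense energy status, 1 rose and 1 fell in Y478 and 2 fell in Y7-1 (medians 0.09 and -0.14). Of 35 tested CIPK kinases, which act with calcium sensors, 4 rose in Y478, and 3 rose and 2 fell in Y7-1 (medians 0.02 and -0.10).

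Receptors, PP2C, SnRK2 and ABI5-like genes were also counted together, as 187 ABA signaling genes of which 117 were tested. Under drought with ABA, 15 rose and 5 fell in Y478, beside 5.84% and 3.82% of all tested genes, and 16 rose and 5 fell in Y7-1, beside 6.56% and 5.19%. SnRK2.4 is 1 of those that rose in each line. The medians of the 117 log2 fold changes were 0.11 and 0.02. The total of 20 in Y478 became 11 without Y478 control-exogenous ABA replicate 1 and 8 without Y478 moderate drought-exogenous ABA replicate 3. The total of 21 in Y7-1 became 12 without Y7-1 moderate drought-exogenous ABA replicate 1 and 13 without replicate 2 of that group.

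Without ABA, 12 of the 116 ABA signaling genes other than SnRK2.4 rose and 4 fell in Y478 under drought, beside 3.34% of all tested genes higher and 2.64% lower. SnRK2.4, chosen on this contrast, is left out of these counts, and its own result there is not given. The totals that follow are over all 117 tested genes. They were 7, 5 and 9 when control replicate 1, 2 or 3 was left out, and 5 and 8 when moderate drought replicate 1 or 2 was. In Y7-1, PP2C 37 was the member called, higher by 2.79 on the log2 scale (adjusted p = 0.0306), beside 0.288% of all tested genes higher and 0.713% in either direction. That call was lost without the library labelled replicate 3, where 0.0836% of all tested genes were called, and without any 1 of the Y7-1 control libraries. The count became 7 without Y7-1 moderate drought replicate 1 and 2 without replicate 2.

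Between lines, 8 ABA signaling genes were higher and 20 lower in Y7-1 under control-exogenous ABA, beside 10.5% and 11.5% of all tested genes. Under moderate drought-exogenous ABA, 10 were higher and 25 lower, beside 13.8% and 14.3%. The medians were -0.13 and -0.20 on the log2 scale, beside 0.02 and 0.00 over all tested genes. SnRK2.4 was not among them. The totals of 28 and 35 fell to 18 without Y478 control-exogenous ABA replicate 1 and 16 without replicate 3 of that group, and to 20 without Y478 moderate drought-exogenous ABA replicate 3. A PYL9-described receptor, Zm00001d016105, was at 15.4 ± 3.43 FPKM in Y7-1 and 89.1 ± 34.0 FPKM in Y478 under moderate drought-exogenous ABA (log2 -2.44, adjusted p = 4.43e-04). PP2C 73 (Zm00001d037949) stood at 22.1 ± 4.74 and 110 ± 18.1 FPKM there (log2 -2.30, adjusted p = 2.99e-04).

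Genes named or described as anion channels, respiratory burst oxidases or KAT1 were also compared between lines. The list was matched by name, and its members, such as SLAH3, are not all known targets of SnRK2 kinases. Of 11 tested members, 2 were higher and 3 lower in Y7-1 than in Y478 with both drought and ABA. Over all tested genes, 13.8% were higher and 14.3% lower there. S-type anion channel SLAH3 (Zm00001d039314) was at 31.6 ± 8.02 FPKM in Y7-1 and 6.40 ± 1.62 FPKM in Y478 (log2 2.21, adjusted p = 0.0062). Respiratory burst oxidase2 (Zm00001d043543) was at 7.86 ± 0.407 and 18.1 ± 2.79 FPKM (log2 -1.15, adjusted p = 9.05e-04), and the potassium channel KAT1 (Zm00001d016160) at 6.49 ± 2.00 and 21.9 ± 5.98 FPKM (log2 -1.68, adjusted p = 0.00748). These 3 calls held in 16 of 16 alternatives.

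Under control without ABA, 7 of the 116 ABA signaling genes other than SnRK2.4 were higher and 7 lower in Y7-1, beside 5.63% and 6.57% of all tested genes (12.2% in either direction). SnRK2.4 was chosen on this contrast too. The total over all 117 tested genes was 4, 6 and 6 when Y478 replicate 1, 2 or 3 was left out, and 7, 8 and 8 when Y7-1 replicate 1, 2 or 3 was. Under moderate drought without ABA 1 was lower, SnRK2.2, beside 0.413% of all tested genes higher and 0.742% lower. That count became 17 of 117 without the library labelled as Y7-1 moderate drought replicate 3 (3 higher and 14 lower). In that refit 12.8% of all tested genes were called, so the larger count is not particular to ABA signaling genes. It became 6 without Y478 moderate drought replicate 3, where the share of all tested genes is not given here.

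Genes whose profile was most like that of SnRK2.4 were sought among 16875 named or described genes with a mean of at least 1 FPKM, by Pearson r of log2(FPKM + 0.5) over the 24 libraries. The values describe these libraries, which share their treatments, and carry no p. The median r was 0.01 and the 95th percentile 0.61, and 2 genes reached 0.9. The highest was ustilago maydis induced8 (Zm00001d044024, r = 0.92), followed by genes described as Cylicin-1 (0.90), a cytochrome b561 and DOMON domain protein (0.90), a UMP-CMP kinase (0.90) and Expansin-B4 (0.90). ASR1 (Zm00001d023529, abscisic acid stress ripening1), an abundant gene at 421 to 4069 FPKM, had r = 0.89.

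Most of this likeness lay between groups. After each group's mean was removed, r fell to 0.48 for ustilago maydis induced8 and 0.48 for ASR1, while Microtubule-associated protein 70-1 (Zm00001d017961, r = 0.89 over all libraries) kept 0.77. The last of the 10 were a nucleobase-ascorbate transporter 6, a P-loop nucleoside triphosphate hydrolase and a WD40 repeat protein, at 0.89, each under 0.26 within groups. Within the family, SnRK2.3 had r = 0.78, Zm00001d012263 had 0.69 and SnRK2.5 had -0.68 (0.79, 0.69 and -0.66 without the library labelled as Y7-1 moderate drought replicate 3).

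The profiles most opposite to SnRK2.4 were those of serine carboxypeptidase-like 40 (r = -0.89), zinc transporter 7 (-0.89), the chloroplast dehydrogenase TIC 32 (-0.88), glutamate receptor 3.3 (-0.87) and thaumatin-like protein 1 (-0.86). Without the library labelled as Y7-1 moderate drought replicate 3, 7 of the 10 most like and 4 of the 5 most opposite genes were named again. Without it, r was 0.88 to 0.91 for those 10 and -0.89 to -0.86 for those 5, and the r left after removal of the group means was 0.47 for ustilago maydis induced8, 0.46 for ASR1 and 0.77 for Microtubule-associated protein 70-1.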

How the data were processed

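RNA of 24 leaf libraries was sequenced, and the authors deposited 1 table of FPKM per gene. The submitters' processing notes name HISAT2 2.0.5 and a genome build of another organism; the gene identifiers and contig names are those of maize B73 RefGen_v4, and the counter and annotation release are not given in the sources used here. FPKM carries no count, but its steps gave whole reads for 100% of values within 0.05, and these gave the library depths. Groups came from the sample titles. Each library is 1 plant.

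FPKM values were analysed as log2(FPKM + 0.5) with limma 3.58.1 (R 4.3.3; lmFit and eBayes with a trend, 8 group means), for 23978 genes with at least 0.5 FPKM in 3 libraries, so that fold changes of low genes are understated. P-values are two-sided, adjusted by Benjamini-Hochberg over all tested genes of a comparison, with a threshold of 0.05. Alternatives were other pseudocounts and filters, median-ratio size factors, array weights, limma-voom on recovered reads, a replicate block, the compared groups alone, and each library left out. The same alternatives for single genes beside SnRK2.4 were added after the data were seen. Code was tested on simulated data.

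SnRK2.4 and all gene lists (name and description patterns) were chosen with earlier results of these data known. Named genes are the SnRK2 family, up to 4 called members of each other list by fold change, the 10 most and 5 least correlated genes, and 2 neighbours on each side. Plots used Python 3.11.15 with pandas 2.3.3 and matplotlib 3.10.9.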

Additional observations from a re-analysis of the deposited data

How the results depend on the processing

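SnRK2.4 kept its call under drought with ABA in 16 of 16 alternatives in each line, with log2 fold changes of 1.41 to 2.06 in Y478 (adjusted p 1.22e-05 to 0.0359) and 2.1 to 2.67 in Y7-1 (2.57e-05 to 0.0328). The lines under control-exogenous ABA were never called (-0.72 to -0.07, adjusted p 0.165 to 0.907), nor was the line difference in the drought response (0.24 to 0.91 over 22 alternatives, adjusted p 0.502 to 0.893). Under moderate drought-exogenous ABA the line difference in SnRK2.4 was never called and ran from -0.024, without Y7-1 moderate drought-exogenous ABA replicate 3, to 0.46 as single libraries were left out.

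Counts of ABA signaling genes, which here are over all 117 tested genes, moved more. With array weights, which weight libraries by their fit, they rose to 58 and 48 under drought without and with ABA in Y478 and to 39 with ABA in Y7-1, and between lines to 28 under control, 44 with ABA added to it and 12 under moderate drought with all libraries weighted, and fell to 0 under drought without ABA in Y7-1. With the compared groups alone, which leave fewer samples for the spread, they were 5 under drought with ABA in Y7-1, 0 without, and between lines 23 under control, 13 with ABA added to it and 0 under moderate drought. With no filter, which tests more genes, the lines gave 9 under control and 0 under moderate drought, and limma-voom on recovered reads gave 0 under moderate drought. Beside these counts of 0, limma at an unadjusted p under 0.05 gave 26 genes other than SnRK2.4 under drought without ABA in Y7-1, where limma-voom called 1. Between lines under moderate drought it gave 21. Shares of all tested genes are not given for this cut. Nor are they given, here or above, for refits other than those without the library labelled as Y7-1 moderate drought replicate 3. Without such shares, the counts cannot show whether ABA signaling genes differ from other genes. As single libraries were left out, the counts ran from 5 to 20 and 8 to 25 under drought without and with ABA in Y478, 0 to 7 and 12 to 22 in Y7-1, and, between lines, 4 to 18 and 0 to 17 under control and moderate drought without ABA and 16 to 32 and 20 to 36 with it. The causes of these changes were not tested.

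Over all groups, the deviations of 84 same-numbered pairs of libraries correlated at -0.24 to 0.32 (median 0.00), with 12 over 0.1. For Y7-1 control and Y7-1 moderate drought the correlations were 0.24, 0.32 and 0.02 in replicates 1, 2 and 3, the last with the library that went against its label. Differently numbered pairs were not computed, so a pairing of the plants by replicate number, over all groups or in those alone, was not tested. With the replicate block, SnRK2.4 gave adjusted p = 0.00676 in Y478 and 8.06e-04 in Y7-1 under drought with ABA, and the count under drought without ABA in Y7-1 was 2. Of 41 calls of single genes beside SnRK2.4, 23 held in all their alternatives, and of 655 refits 88 lost the call and 0 reversed it. No 2 replicates were copies, since their reads differed by a chi-square of at least 16.5 per degree of freedom. A search of promoters was not run, since no promoter sequence was at hand. With 3 plants a group, differences smaller than the intervals given could not be shown.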

Other observations

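The kinase families nearest to SnRK2 were also set side by side between lines. Under moderate drought-exogenous ABA, 1 of 35 tested CIPK kinases was higher and 13 were lower in Y7-1 than in Y478, with a median log2 difference of -0.65, beside 13.8% of all tested genes higher and 14.3% lower. Under control-exogenous ABA, 2 CIPK genes were higher and 6 lower, with a median of -0.35, beside 10.5% of all tested genes higher and 11.5% lower. Of 15 tested SnRK1 kinases and partners, 2 were higher and 3 lower with drought and ABA (median -0.35), and 2 were higher and 2 lower with ABA alone (median 0.16).

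Within some groups, the plant with the most SnRK2.4 was also the highest for the gene of most like profile. Y478 control-exogenous ABA replicate 2, at 15.4 FPKM of SnRK2.4, had 8.82 FPKM of ustilago maydis induced8 (Zm00001d044024) against 2.72 and 3.89 in the other plants. Y7-1 control replicate 1, at 20.7 FPKM of SnRK2.4, had 38.5 FPKM of that gene against 11.2 and 14.2. That gene was picked as most like SnRK2.4 over these same libraries, both plants among them. The agreement in these plants thus follows in part from that choice. Other groups and other genes of like profile are not shown here. These are values of single plants and were not tested.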
